A study of Mus musculus with 2 samples.

Results

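Naca, Btf3, Smyd1, Smyd2 and Unc45b encode factors that act on proteins as they are made or folded in muscle, and they were taken by name from the gene column of both deposited tables, with every class of transcript model. They are 5 of 16310 named genes in the series. Their models numbered 70 of 91724 in replicate 1 and 72 of 94012 in replicate 2, spike-ins left out. The series is long-read RNA sequencing of whole heart from female B6CASTF1/J mice, a first-generation cross of the C57BL/6J and CAST/EiJ strains, at 14 days of age. It holds 1 group of 2 libraries, with no treatment or second genotype to compare, and the counts do not separate the parental alleles. The labels of replicate 2 describe its animal differently in separate fields, so it is not clear which animals the libraries came from. Intervals and p-values below cover counting error between these libraries only, and the spread between them may be technical.

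The nascent polypeptide-associated complex sits at the ribosome exit, where its alpha subunit, encoded by Naca, pairs with its beta subunit, encoded by Btf3. In heart and skeletal muscle a very large exon can be spliced into Naca to give skNAC, a form that binds the MYND domain of Smyd1, a lysine methyltransferase needed for heart and muscle development. Unc45b is the striated-muscle chaperone of the myosin head and works with Hsp90, and Smyd2 is a related lysine methyltransferase whose known substrates include Hsp90.

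Replicate 1 held 896941 reads and replicate 2 held 972159. Levels are given as reads per 1000000 (CPM) of 858071 and 926560 reads, which leave out spike-ins and the genomic class, reads within a gene that match no splicing pattern. A long read stands for 1 cDNA molecule, so levels were not divided by length. The most read annotated forms of the members ran from 885 bases (Naca-201) to 3549 bases (Unc45b-201). How length affects the recovery of reads, and so the order of genes by level, was not tested. Where a gene has a count of 0, its level can be as high as that of 3 reads, 3.50 CPM in the first library and 3.24 CPM in the second. The heart label was met by its markers: all 10 cardiomyocyte markers were detected, with a summed level of 49202 ± 731 CPM (SD, n = 2). Of 11 skeletal muscle markers none reached 3 reads in both libraries, 8 were at 0, and the list held 4 reads in replicate 1 and 6 in replicate 2. Fibroblast, endothelial, smooth muscle and erythroid markers were all detected, so the samples were mixed tissue, in which fewer cells of a type and less RNA per cell cannot be told apart.

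All 5 genes were detected in both libraries at moderate levels. Unc45b was the most abundant, with 303 CPM from 260 reads in replicate 1 and 308 CPM from 285 reads in replicate 2. Smyd1 followed with 239 CPM from 205 reads and 232 CPM from 215 reads. Naca stood at 175 CPM from 150 reads and 189 CPM from 175 reads. Its range overlapped that of Smyd2, which had 168 CPM from 144 reads and 177 CPM from 164 reads. Btf3 was the least abundant, with 99.1 CPM from 85 reads and 115 CPM from 107 reads, though with annotated models alone Naca was lower, at a mean of 131 CPM against 135 CPM for Btf3. The other neighbours in this order had ranges that did not overlap. Among 9985 genes with at least 3 reads in each library, Unc45b ranked 471 by mean level, between Art3 and Smpd1, and Smyd1 ranked 641, between Ktn1 and Ank. Naca ranked 849, between Sdhc and Atp6v0b. Smyd2 ranked 902, level with Eri3 at 172.4 CPM and above 2410015M20Rik. Btf3 ranked 1557, level with Drg1 at 107.3 CPM and above Glod4.

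**Figure D1:**
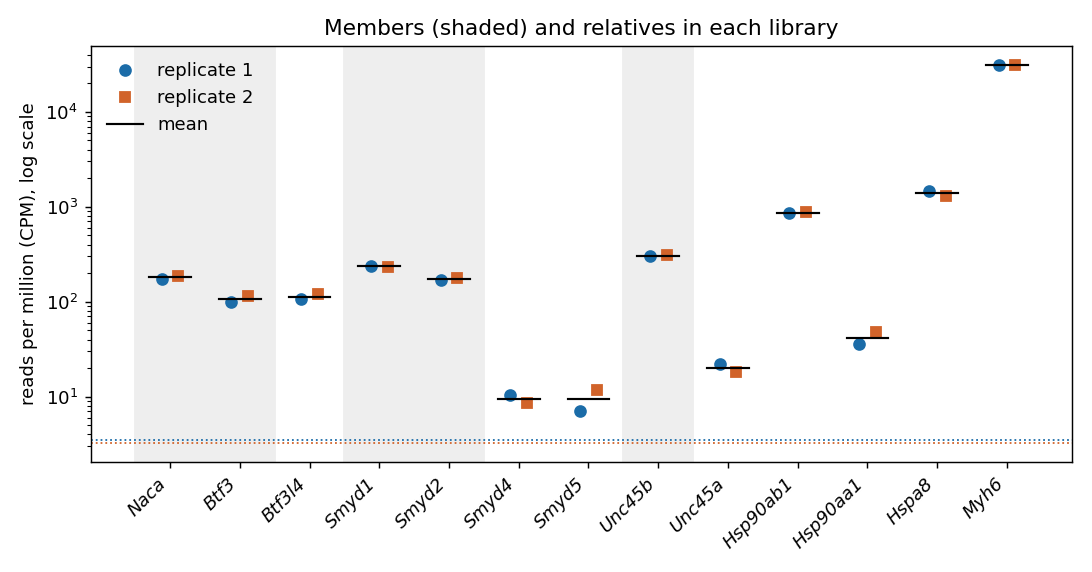
Level of each gene in CPM (log axis) in replicate 1 (circles) and replicate 2 (squares), with the mean of both as a bar; members are shaded and dotted lines mark the level that a count of 0 allows in each library. Unc45b stands at 303 and 308 CPM, far above its relative Unc45a at 22.1 and 18.3 CPM, while Btf3 and Btf3l4 lie side by side.

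None of the 5 genes differed between the libraries beyond counting error in a two-sided exact binomial test with Benjamini-Hochberg adjustment over 9433 genes. In that test 1.72% of genes were called, 0.784% higher and 0.933% lower in replicate 2. The log2 ratio of replicate 2 to replicate 1 was largest for Btf3, at 0.22 (95% interval -0.20 to 0.65, exact adjusted p = 0.875). It was 0.11 for Naca (-0.21 to 0.44, exact adjusted p = 0.977) and 0.08 for Smyd2 (-0.25 to 0.41, exact adjusted p = 1). Unc45b gave 0.02 (-0.23 to 0.27) and Smyd1 gave -0.04 (-0.32 to 0.24), both with an exact adjusted p of 1. The erythroid markers Hba-a1, Hbb-bs and Alas2 were all called lower in replicate 2. Of the 10 cardiomyocyte markers, Actc1, Myl2 and Myl3 were called higher in replicate 2 and Nppa lower. The part of these differences in the members' values was not tested.

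The genes differed in how many of their reads matched an annotated transcript, as the plot of model classes shows. In Btf3, 98.8% of reads in replicate 1 and 99.1% in replicate 2 were on annotated transcripts. In Naca these shares were 55.3% and 57.7%. Nearly all the other Naca reads were incomplete, holding part of an annotated chain of introns. Reads on incomplete models that lack the 5′ part made up 44.0% (95% Clopper-Pearson interval 35.9 to 52.3) and 41.1% (33.8 to 48.8) of Naca. They made up 11.2% and 9.47% of Unc45b, 6.83% and 4.65% of Smyd1, 2.08% and 3.05% of Smyd2, and 0 of 85 and 0 of 107 reads of Btf3. Over genes with at least 50 reads the median of this share was 2.54% over 2837 genes in replicate 1 and 2.42% over 3031 genes in replicate 2, and 64 and 84 genes exceeded Naca.

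**Figure D2:**
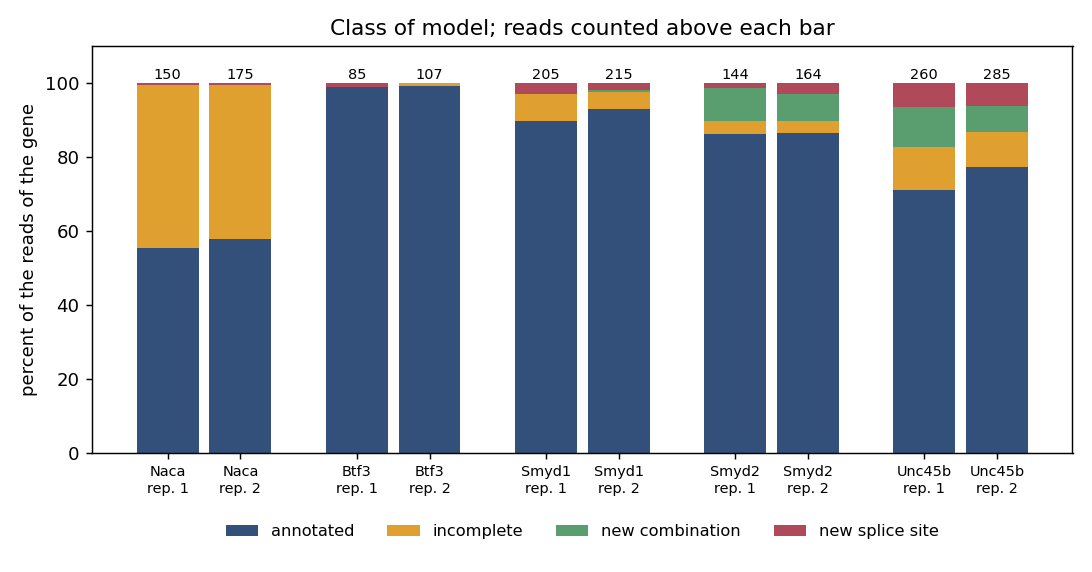
Percent of the counted reads of each gene by class of transcript model in each library, with the number of reads above each bar. The incomplete class takes 44.0% and 41.7% of Naca reads and is nearly missing from Btf3; new combinations of known splice sites are a visible part of Smyd2 and Unc45b.

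Naca lies at chr10:128035575-128048637 on the plus strand of mm10. Its short annotated form, Naca-201, has 8 exons, 885 bases and 215 codons. The long form, Naca-202, has 9 exons, 6745 bases and 2187 codons, and differs by a coding exon of 5916 bases, or 1972 codons, at chr10:128039171-128045086. The splice junctions that tell the forms apart are shown from the GENCODE M21 transcripts, 30 bases to each side, with the exon that follows the junction in capitals. The first skips the large exon, the second enters it and the third leaves it.
Naca-201 junction: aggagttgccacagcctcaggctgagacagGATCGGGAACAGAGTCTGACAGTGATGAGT
Naca-202 upstream junction: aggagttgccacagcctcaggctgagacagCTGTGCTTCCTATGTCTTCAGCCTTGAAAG
Naca-202 downstream junction: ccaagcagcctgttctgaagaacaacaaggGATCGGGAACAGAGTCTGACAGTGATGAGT

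Naca-201 took 83 reads in replicate 1 and 101 in replicate 2, and Naca-202 took 0 in each. No read of any class held the annotated junction into the large exon. The junction out of it was held by 60 reads and 73 reads, against 86 and 102 reads with the junction that skips it. Of the reads with either of these junctions, 41.1% (33.0 to 49.5) in replicate 1 and 41.7% (34.3 to 49.4) in replicate 2 held the junction out. The mean was 41.4 ± 0.437% (SD, n = 2, two-sided Fisher's exact p = 1). The 73 reads of replicate 2 include 1 that entered the exon at an unannotated acceptor. Since no read held the annotated junction into the exon, these shares do not show inclusion of the whole exon. Counted over complete forms alone, with both flanking splice sites, inclusion was 0 of 83 reads and 0 of 101 reads. The Clopper-Pearson intervals of these shares reach up to 4.35% in replicate 1 and 3.59% in replicate 2. The junction measure was added after the complete-form counts had been seen.

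Almost all the reads with the large exon were on 1 model in each library. It held 59 reads in replicate 1 and 72 in replicate 2, began inside the exon, and ran on through the junction out of it and 6 further exons to the 3′ end of Naca-201. The model began at position 128042100 in replicate 1, with 3691 bases, and at position 128042101 in replicate 2, with 3690 bases. It thus held the last 2987 or 2986 bases of the exon, or 50.5% of it, and missed the first 2929 or 2930. TALON gives a single start for each model, so where each read began is not given in the files. In replicate 1, 3 more reads overlapped the exon without its junction. In replicate 2, 1 read that reached the first exon was spliced to an unannotated acceptor inside the large exon, at position 128044847, and so held its last 240 bases; it is named after its structure was seen. The 120 bases of Naca-202 around the model start are shown with capitals from the first base of the replicate 2 model.
Naca large exon around model start: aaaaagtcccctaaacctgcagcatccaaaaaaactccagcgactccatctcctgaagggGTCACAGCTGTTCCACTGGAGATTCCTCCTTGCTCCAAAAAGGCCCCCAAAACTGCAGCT

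**Figure D3:**
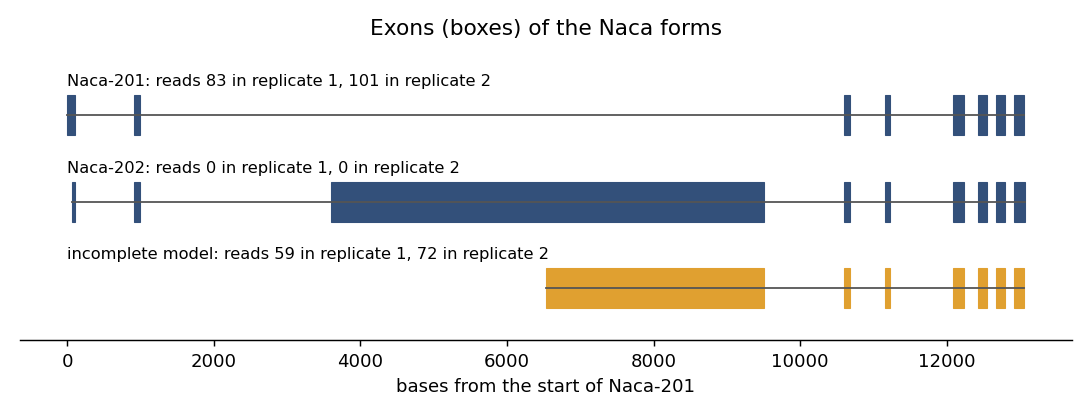
Exons of the annotated Naca forms (blue) and of the recurrent incomplete model (orange) as boxes, by distance in bases from the start of Naca-201, with reads per library. The incomplete model, with 59 and 72 reads, covers the downstream part of the large exon and every exon after it, and no read held the annotated junction into the exon.

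Reads were assigned to annotated transcripts as long as Naca-202, though the files do not give how much of a transcript each read covered. Annotated models of at least 6745 bases took 7920 reads on 550 models in replicate 1 and 8481 reads on 543 models in replicate 2, or 1.18% and 1.16% of reads on annotated models. How far such a length lowers the count of a full read of Naca-202 was not tested. The large exon is rich in proline codons: CCN made up 17.9% of its 1971 whole codons, against 4.17% of the 216 codons in the rest of Naca-202. The median over 21584 coding genes was 5.27%, and 98 genes had a higher share. Over the whole of Naca-202, rather than the exon alone, the share was 16.6%. The MYND domain of Smyd1 is known to bind a motif of proline, any residue, leucine, any residue and proline. Searched in frame on the coding strand, with proline as CCN and leucine as CTN, it occurred at 1 place in the exon, downstream of the model start. Of 472 other genes with a window of that length, 42.6% held it too, so this match is a description only.

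Btf3 encodes the beta subunit and lies at chr13:98309896-98317006 on the minus strand. Naca made up 63.8% of the reads of both subunit genes in replicate 1 (57.3 to 70.0) and 62.1% (56.1 to 67.7) in replicate 2, a mean of 62.9 ± 1.25% (SD, n = 2). This differed from an even split in a two-sided exact binomial test, with p = 5.34e-05 and 1.02e-04 adjusted over 5 pairs of genes in 2 libraries. With annotated models alone the Naca share was 49.2%, below an even split, since the reads in the large exon are then left out. Set beside Btf3, the short form Naca-201 had 83 reads against 85 and 101 reads against 107. That is 49.4% (41.6 to 57.2) and 48.6% (41.6 to 55.6), a comparison chosen after the values were seen.

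Btf3 was read almost entirely as Btf3-205, a form of 162 codons, with 80 reads in replicate 1 and 96 in replicate 2. Btf3-201, of 204 codons, had 4 and 8 reads. Of the reads of these forms, Btf3-205 took 95.2% (88.3 to 98.7) and 92.3% (85.4 to 96.6). The forms differ in where the first exon ends, and the shorter frame opens at an ATG that lies inside the longer one. This ATG is the first codon of exon 2 in Btf3-201, in capitals here.
Btf3-201: ggacgggagtctcagATGAAAGAAACAATC

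Btf3l4, a close relative of Btf3, stood at 106 CPM in replicate 1 and 119.8 CPM in replicate 2. Btf3 took 48.3% (40.7 to 55.9) and 49.1% (42.3 to 55.9) of the reads of this pair, and the difference from an even split was not past the threshold (exact adjusted p = 0.785 and 0.839). Nacad, a relative of Naca, had 0 and 1 reads. With these relatives, 16 of the 17 genes listed for the complex and the nascent chain were detected, with a summed level of 1259.8 ± 4.98 CPM (SD, n = 2). The highest were Metap2, which removes the first methionine, at 268 ± 10.6 CPM and Srp54b, which belongs to the signal recognition particle and has the close copies Srp54a and Srp54c, at 123 ± 22.5 CPM. None of the 16 was called between the libraries, beside 1.72% of all genes tested. Their median log2 ratio was 0.13, against 0.0047 over all genes tested.

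Smyd1 lies at chr6:71213940-71322233 on the minus strand and was read in a pair of annotated forms that differ by 1 exon. Smyd1-201, of 490 codons, had 117 reads in replicate 1 and 120 in replicate 2. Smyd1-202, of 477 codons, had 67 and 80. The exon of 39 bases, or 13 codons, at chr6:71235343-71235381 keeps the frame, and is shown in capitals between its flanks, above the same junction without it.
Smyd1-201: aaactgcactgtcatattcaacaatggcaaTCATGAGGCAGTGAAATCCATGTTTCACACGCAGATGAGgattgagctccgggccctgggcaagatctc
Smyd1-202: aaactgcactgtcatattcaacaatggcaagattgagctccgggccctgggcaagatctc

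Over all complete forms, this exon was held by 121 of 190 spanning reads in replicate 1, or 63.7% (56.4 to 70.5), and by 124 of 205 in replicate 2, or 60.5% (53.4 to 67.2). The mean was 62.1 ± 2.26% (SD, n = 2), and the libraries did not differ beyond counting error (Fisher's exact adjusted p = 1). The annotated forms Smyd1-203, Smyd1-204, Smyd1-205 and Smyd1-206 had 0 reads. Of these, Smyd1-203 and Smyd1-205 reach up to 59952 bases upstream of the start of Smyd1-201. A single read in replicate 2 joined Smyd1 exons to exons upstream of the annotated gene. Unannotated forms with a new splice site numbered 10 and held 6 reads in replicate 1 and 4 in replicate 2. A further 34 and 33 reads of the genomic class are not part of the Smyd1 counts.

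Among SMYD genes, Smyd1 and Smyd2 carried nearly all reads. Smyd4 stood at 9.56 ± 1.31 CPM and Smyd5 at 9.43 ± 3.45 CPM (SD, n = 2), and Smyd3 had 1 and 0 reads. Of the reads of Smyd1 and Smyd2 together, Smyd1 took 58.7% (53.4 to 64.0) in replicate 1 and 56.7% (51.6 to 61.8) in replicate 2, above an even split (exact binomial p = 0.00184 and 0.0127, adjusted over pairs and libraries). Smyd1-201 has 3361 bases and Smyd2-201 has 1680, and the part of length in this share was not tested.

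Smyd2 lies at chr1:189880492-189922363 on the minus strand. Its full form of 433 codons, Smyd2-201, had 120 of 129 usable reads in replicate 1, or 93.0% (87.2 to 96.8), and 135 of 152 in replicate 2, or 88.8% (82.7 to 93.3). Usable reads are those on annotated forms and on unannotated spliced forms with at least 5 reads in each library. The recurrent unannotated form lacked exon 3, at chr1:189899818-189899928, with 5 reads in replicate 1 and 10 in replicate 2. The exon, in capitals between its flanks, has 111 bases and 37 codons, so its loss keeps the frame.
Smyd2-201 exon 3: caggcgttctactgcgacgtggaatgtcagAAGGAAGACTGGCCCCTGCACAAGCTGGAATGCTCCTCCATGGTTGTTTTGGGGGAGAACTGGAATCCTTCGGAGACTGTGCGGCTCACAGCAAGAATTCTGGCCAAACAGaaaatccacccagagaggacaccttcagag

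Exon 3 was included in 96.3% of spanning reads (91.5 to 98.8) in replicate 1 and 93.3% (88.0 to 96.7) in replicate 2, and the intervals overlapped. A further form lacked exons 6 and 7, which hold 171 bases or 57 codons, in 8 reads of replicate 1 and 1 read of replicate 2. Inclusion of this pair of exons was 94.1% (88.7 to 97.4) and 99.3% (96.4 to 99.98), with a Fisher's exact p of 0.0144 that became 0.345 after adjustment over 48 internal exons of the 5 genes. Of those 48 exons, the Smyd1 exon of 39 bases and exon 3 of Smyd2 had a mean inclusion between 5 and 95% over complete forms. Smyd2-203, a short model with a retained intron, had 4 and 6 reads.

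Unc45b lies at chr11:82910550-82943403 on the plus strand. With incomplete and genomic-class models counted, it was read in 46 distinct forms, the most of the 5 genes, of which 26 were a single read. Unc45b-201, the form of 20 exons and 929 codons, held 185 reads in replicate 1 and 220 in replicate 2. This was 87.3% (82.0 to 91.4) and 91.7% (87.4 to 94.8) of usable reads. Unc45b-202, Unc45b-203, Unc45b-204 and Unc45b-205 had 0 reads each as annotated. Unc45b-205 differs from Unc45b-201 by a donor site 6 bases further on. Its junction was held by 1 read in each library, against 220 and 254 reads with the junction of Unc45b-201. In replicate 2, 1 more read joined this donor to an unannotated acceptor.

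The remaining usable reads were on a form that began within intron 13 of Unc45b-201 and ran through its last 7 exons. The most read model of this kind began at position 82930859 in replicate 1, with 27 reads, and at position 82932228 in replicate 2, with 20 reads. In both libraries its first exon ended at position 82933652, the donor site of the first exon of Unc45b-204, a noncoding annotated transcript. The 60 bases of Unc45b-204 around this junction are shown, with its second exon in capitals.
Unc45b-204: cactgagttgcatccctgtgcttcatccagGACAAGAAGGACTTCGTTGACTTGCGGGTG

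With rarer models that share this first junction, the form took 30 of 260 Unc45b reads in replicate 1, or 11.5% (7.92 to 16.1), and 22 of 285 in replicate 2, or 7.72% (4.90 to 11.5). The libraries were not told apart (two-sided Fisher's exact p = 0.145, a test added after the values were seen). Its first exon was 2794 bases long in the main model of replicate 1 and 1425 in that of replicate 2. Forms with a new splice site numbered 21 and held 17 and 18 reads. The most read of them, with 3 and 4 reads, had an exon 1 with a donor 21 bases further on.

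**Figure D4:**
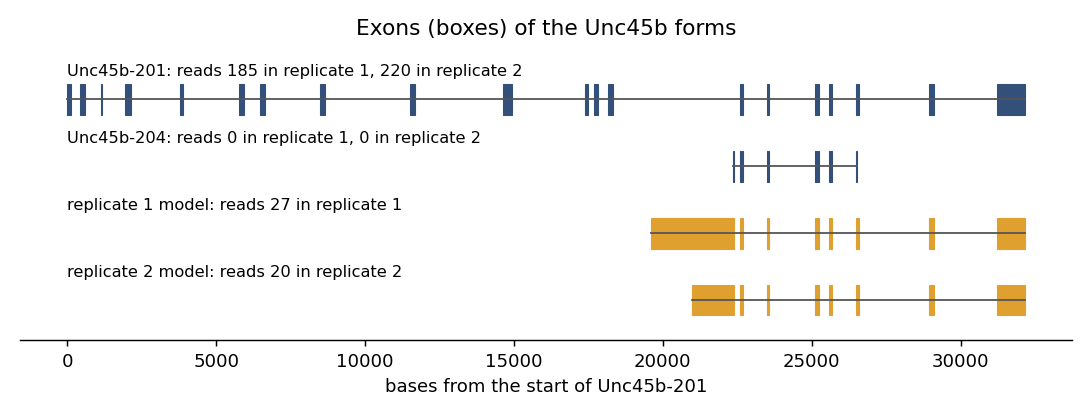
Exons of Unc45b-201 and Unc45b-204 (blue) and of the models that start in intron 13 (orange) as boxes, by distance in bases from the start of Unc45b-201, with reads per library. The models of replicate 1, with 27 reads, and replicate 2, with 20 reads, begin at different places and share the end of their first exon and all later exons.

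No member's leading form changed its share between the libraries (two-sided Fisher's exact test, adjusted over 4348 genes, of which 0.023% were called; exact adjusted p = 1 for each member). The leading form took a mean of 100% of usable reads in Naca, or 56.5% with incomplete models counted and no minimum for unannotated forms. It took 92.9 ± 3.30% in Btf3, 61.8 ± 2.54% in Smyd1, 90.9 ± 2.98% in Smyd2 and 89.5 ± 3.11% in Unc45b (SD, n = 2). Smyd1 was thus the member most evenly split between complete forms.

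**Figure D5:**
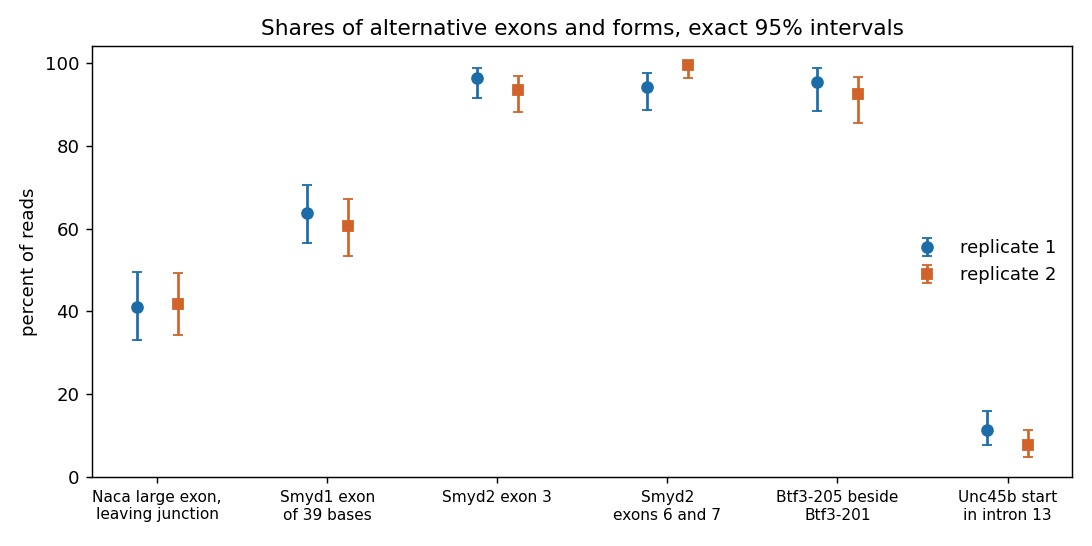
Share of reads in each library with exact 95% Clopper-Pearson intervals. The Naca point is the junction leaving the large exon against the junction skipping it, with incomplete models counted. The others are inclusion of Smyd1 and Smyd2 exons over complete forms, the share of Btf3-205 against Btf3-201, and the share of Unc45b reads that start in intron 13. The Naca junction share, at 41.1 and 41.7%, and the Smyd1 exon, at 63.7 and 60.5%, lie between the extremes in both libraries. By the complete-form measure used for the Smyd1 and Smyd2 exons, the Naca exon was held by 0 of 83 and 0 of 101 reads.

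Unc45b far outnumbered Unc45a, its relative in other cell types. Unc45a had 19 reads in replicate 1 and 17 in replicate 2, so Unc45b took 93.2% (89.6 to 95.9) and 94.4% (91.1 to 96.7) of the reads of the pair (exact binomial p = 7.14e-55 and 2.23e-63, adjusted over pairs and libraries). Hsp90ab1 likewise took 96.0% and 94.9% of the reads of the cytosolic Hsp90 genes Hsp90aa1 and Hsp90ab1. All 12 genes listed for myosin folding were detected, with a summed level of 4212 ± 31.3 CPM (SD, n = 2). The highest were Hspa8, the constitutive Hsp70, at 1387 ± 103 CPM, Hsp90ab1 at 867 ± 11.6 CPM, the Hsp90 co-chaperone Fkbp4 at 625 ± 44.5 CPM, and the kinase co-chaperone Cdc37 at 308 ± 11.0 CPM. None of the 12 was called between the libraries, beside 1.72% of all genes tested, and their median log2 ratio was 0.0014.

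Myosin heavy chains, of which Unc45b folds those of striated muscle, were read almost only as Myh6, the adult mouse cardiac chain, at 31270.1 CPM in replicate 1 and 30799 CPM in replicate 2. Myh7, the slow and fetal cardiac chain, had 5 and 14 reads. All 7 listed heavy chain genes, which include nonmuscle and smooth muscle chains, were detected. None was called, beside 1.72% of all genes tested, and their median log2 ratio was -0.02. Of 11 listed partners and regulators of Smyd1 and Unc45b, 10 were detected, with a median log2 ratio of 0.09, and Trb3 has no entry of that name in the annotation. These include Hdac1, Hdac2 and Hdac3, deacetylases that work with Smyd1, at 32.5 ± 1.41, 126 ± 11.6 and 79.9 ± 10.7 CPM. Gata4, a cardiac transcription factor, stood at 144 ± 8.84 CPM and Myom1, a protein of the M band, at 475 ± 22.6 CPM. Ckm, the muscle creatine kinase, was the only 1 of the 10 called, beside 1.72% of all genes tested. It had 9120 reads in replicate 1 and 9132 in replicate 2, and was lower in replicate 2 with a log2 ratio of -0.11 (exact binomial adjusted p = 7.09e-05).

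Near-identical copies could take reads from a member. The annotation holds 3 pseudogenes at 90% or more identity over at least 50% of the Naca-201 transcript, which had 0 reads in each library. Btf3-205 has 5 such pseudogenes, with 0 reads in replicate 1 and 1 read in replicate 2. No such copy of Smyd1, Smyd2 or Unc45b was found.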

How the data were processed

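The deposited files hold, for each library, the count of long reads on each transcript model, as whole numbers, with the class and exons of the model. Per the labels and the deposited descriptions, filtered mm10 alignments were used with the M21 annotation of GENCODE. Per the file headers, TALON built the models, separately in each library; the sources used here do not give the aligner, filters or versions. For each gene the reads of every class but genomic were added up. The members and gene lists were chosen with earlier results of these data known. Named genes are the members, detected genes of the lists with the 4 highest first, forms with at least 3 reads in both libraries, and the genes next to a member in rank. Outside this rule, the undetected Nacad and Smyd3, the Smyd2 form without exons 6 and 7 and the single reads described were named after their values were seen. Unannotated models were matched between libraries by strand and intron chain. Genes with at least 10 reads in both libraries together were tested between libraries, and form shares where each library had at least 20 usable reads. Exact tests, tested on simulated data, and Clopper-Pearson 95% intervals were computed with scipy 1.17.1 in Python 3.11.15. TMM factors came from edgeR 4.0.16 and near copies from BLAST+ 2.17.0. Sequences are from the GENCODE M21 transcripts. Coordinates are 1-based. Alternatives were other classes of model, totals, minimums of reads and leaving out a library.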

Additional observations from a re-analysis of the deposited data

Results flagged for a closer look

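Reads that are not part of the members' counts lay at a pair of the loci above the 3 reads that a count of 0 allows. The antisense class held 20 reads at Smyd1 in replicate 1 and 28 in the other library, on 4 models of a single exon in each library that lie between positions 71221160 and 71260856 of chromosome 6. Genomic-class reads of Smyd1 numbered 34 and 33, of which 33 and 30 were on a deposited model of 3 bases at the 3′ end of the gene. Counting them would raise Smyd1 from 205 to 239 reads and from 215 to 248 reads. Unc45b had 4 genomic-class reads in replicate 2. The sources used here do not say how strand was assigned. The named genes Krcc1 and Mir8112 overlap Smyd1 on the opposite strand and together held 57 reads in replicate 1 and 54 in replicate 2.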

How the results depend on the processing

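No member was called between libraries under any alternative run, and the Smyd1 exon of 39 bases and exon 3 of Smyd2 kept their inclusion within the spread of the libraries; no paired analysis was possible because there is 1 group. With annotated models alone the mean level was 131 CPM for Naca, 135 for Btf3, 275 for Smyd1, 190.1 for Smyd2 and 289 for Unc45b, and the Naca share of Btf3 and Naca fell to 49.2%, which reversed its direction. Counting the genomic class gave 264 CPM for Smyd1 and 298 for Unc45b, and keeping spike-ins in the total gave 301 for Unc45b. The setting that counted incomplete models also had no minimum for unannotated forms. It gave a leading-form share of 56.5% for Naca, 56.4% for Smyd1, 82.8% for Smyd2 and 74.2% for Unc45b. With annotated models alone this share was 95.9% for Smyd2 and 100% for Unc45b. With the minimum dropped but incomplete models left out, it was 98.9% for Naca, 85.6% for Smyd2 and 82.9% for Unc45b. Inclusion of the large exon of Naca was 0 in complete forms. Reads overlapping the exon made up 42.0% over every model with it or its skipping junction. Reads with the junction out of it made up 41.4% of those with either junction. The cause was not tested. Genes called between libraries numbered 120 to 167. Leaving out a library says nothing of stability here, since the mean of 2 values cannot then move by more than their SD, and a difference between libraries could not be refitted without one. Depth of 85 to 285 reads per gene sets the intervals.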
